A study of Mus musculus with 3 samples.

Results

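The genes described here are 9 genes of antigen presentation on major histocompatibility complex (MHC) class II, found by symbol among the 55401 genes of the deposited count matrices: H2-Aa, H2-Ab1, H2-Eb1, Cd74, Ciita, H2-DMa, H2-DMb1, H2-DMb2 and H2-Oa. The rule lists them by symbol and uses no measured value, but they were chosen with earlier results of these data known. The cells were leukocytes from tumours of YUMM1.7, a mouse melanoma line, of which 500000 cells had been injected under the skin of mice aged 4, 12 or 20 months. The grafts were taken on day 18 and dissociated enzymatically (DNase I and collagenase D), and sorting kept viable cells with the leukocyte protein CD45 on their surface. Each age had 7 mice and 1 library, made with PIP-seq, a 3′ method in which cells are partitioned with barcoded beads without a microfluidic chip. The labels give neither strain nor sex of the mice, do not say whether the 7 mice were pooled, and name no treatment other than the tumour graft, which all 3 groups share. With 1 library per age, age and library cannot be told apart, no comparison between ages has a replicate check, and none carries a test.

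MHC class II molecules are pairs of an alpha and a beta chain that carry peptides from endosomes to the cell surface, where CD4 T cells read them. In the mouse, H2-Aa and H2-Ab1 encode the pair called I-A, and H2-Eb1 encodes the beta chain of I-E. Cd74, the invariant chain, occupies the groove of the new pair and directs it to endosomes, where H2-DM (H2-DMa with H2-DMb1 or H2-DMb2) exchanges the last fragment of Cd74 for peptide and H2-O (H2-Oa with H2-Ob) restrains H2-DM. Ciita, the class II transactivator, is recruited to the promoters of these genes by factors already bound there, and it is the step at which their transcription is switched. Dendritic cells and B cells make class II constantly, macrophages and monocytes make more of it after exposure to interferon-gamma, and mouse T and NK cells are not known as class II producing cells.

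The matrices held 14393, 14653 and 14684 cells with medians of 6789, 7411 and 6936 counts per cell, and wherever 3 values stand in a row they are those of the 4-, 12- and 20-month libraries in that order. After removal of the highest-scoring doublets, 41105 cells were clustered without the members and the pathway genes and named by fixed marker genes, which gave 13 classes with at least 20 cells in each library. Levels are CPM, counts scaled to 1000000 counts in all, summed over the cells of a class and library, and intervals are exact 95% intervals that cover counting error only, not differences between mice. The libraries shared 9 cell barcodes. A T-like cluster and a macrophage-like cluster, both led by Cbfa2t2 and Gm47854, lay almost wholly in the 12-month library (1272 and 967 of their cells, against 17 and 8 at 4 months). Although the labels name melanoma as the cell type, the summed level of 6 pigment-cell markers was at most 10.6 CPM in any class.

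On the GRCm38 build, annotated in GENCODE M21, 7 members lie on chromosome 17 in the MHC region: H2-Oa at chr17:34092340-34095234, H2-DMa at chr17:34119541-34139101, H2-DMb2 at chr17:34143307-34151555, H2-DMb1 at chr17:34153072-34160230 and H2-Ab1 at chr17:34257689-34269419 on the plus strand, H2-Aa at chr17:34282744-34287823 on the minus strand, and H2-Eb1 at chr17:34305867-34316674 on the plus strand. Ciita lies at chr16:10480059-10528418 and Cd74 at chr18:60803848-60812652, both on the plus strand. All 9 are annotated as protein-coding. Genes on the opposite strand overlap H2-Eb1 (Gm20513), Ciita (Dexi), H2-Oa (BC051537) and H2-DMa (Brd2 and 2 others). Whether the counting used strand is not given in the sources used here, so reads of these overlaps cannot be assigned with certainty.

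Summed over the libraries, every member had its highest level among the named classes in type 2 dendritic cell-like cells, a class of 470, 354 and 436 cells marked by Cd209a, Kmo and Clec10a. Ciita alone was higher in type 1 dendritic cell-like cells when no doublets were removed or with finer clusters. H2-Aa, the I-A alpha chain, stood there at 9068, 8518 and 8548 CPM. H2-Ab1, its beta chain, stood at 9079, 8899 and 10180.4 CPM, and H2-Eb1 at 7529.7, 7531 and 9733 CPM. The 20-month library had the highest H2-Ab1 and H2-Eb1 of the 3 in this class, while its H2-Aa lay within the range of the other libraries. Cd74 was counted at 22047, 20928 and 22323 CPM in the same cells.

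C1q macrophage-like cells, the largest myeloid class with 2866, 3044 and 3609 cells, came next for the 3 chains and Cd74. Their H2-Aa was 7395, 8287 and 6539.8 CPM, their H2-Ab1 7674, 8321 and 7201 CPM, and their H2-Eb1 5847, 6798 and 6506 CPM. In all 3 libraries these H2-Aa levels lay below those of type 2 dendritic cell-like cells, and for H2-Ab1 and H2-Eb1 the range over libraries overlapped that of type 1 dendritic cell-like cells. Cd74 in the macrophages was 18615, 20915 and 17754 CPM. The class held 69.6% of all H2-Aa counts of the retained cells, against 11.2% in type 2 dendritic cell-like cells.

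Type 1 dendritic cell-like cells, marked by Xcr1, Clec9a and Wdfy4 and numbering 90, 89 and 154, carried H2-Aa at 6356, 6194 and 5219 CPM. All 3 values lay below those of the macrophages. H2-Ab1 in this class was 7004, 7525 and 7177 CPM and H2-Eb1 5341, 6117 and 6480.5 CPM, close to the macrophage levels. Mature dendritic cell-like cells, marked by Fscn1, Ccr7 and Ccl22 and numbering 136, 169 and 102, had H2-Aa at 4854, 4404 and 2786 CPM and H2-Ab1 at only 2166, 2368 and 1484 CPM. Plasmacytoid dendritic cell-like cells had 844, 1055 and 1199 CPM of H2-Aa, below monocyte-like cells in each library.

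Monocyte-like cells, defined by Ly6c2, Vcan and F13a1 and numbering 2295, 1108 and 1446, had H2-Aa at 1091, 1290.0 and 1220.2 CPM, H2-Eb1 at 749, 875 and 1034 CPM and Cd74 at 3783, 4418 and 4547 CPM. Nonclassical monocyte-like cells, only 95, 40 and 35 in number, had H2-Aa at 1290.1, 2122 and 1894 CPM. Lymphocytes gave the background against which these values stand. NK-like cells held 441, 562 and 494 CPM of H2-Aa and T-like cells 466, 608 and 623 CPM. Over all libraries the H2-Aa level was 17.5 times that of NK-like cells in type 2 dendritic cell-like cells and 14.8 times in macrophages. Monocyte-like cells were above the NK-like level in every library, but their level depended on how cells were assigned: H2-Aa over all libraries was 1178 CPM and ran from 1095 to 2778 CPM over the other clusterings. A cluster of 24, 26 and 22 cells with both B-like and plasma-like markers, left unnamed, held 4985, 3534 and 4494 CPM of H2-Aa.

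**Figure D1:**
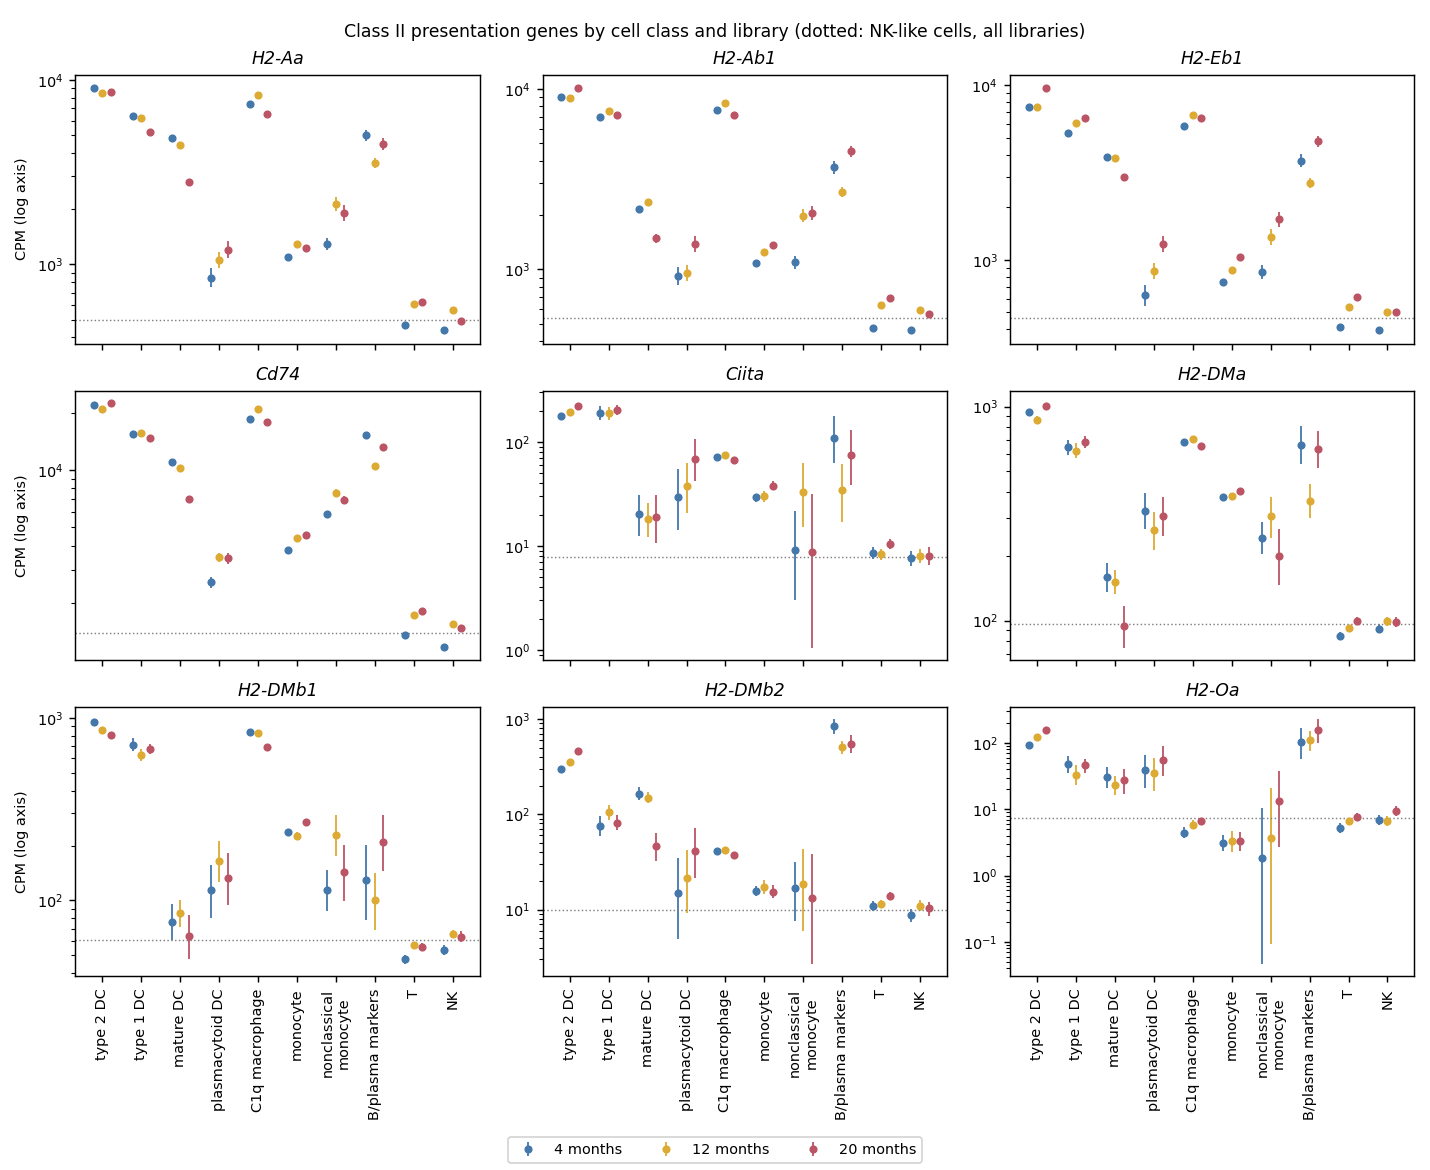
Level of each of the 9 members (CPM of the summed counts of a class and library, log axis) by cell class, with 1 point for each library coloured by age and exact 95% intervals of counting error; the dotted line is the level in NK-like cells. Type 2 dendritic cell-like cells stand at or near the top of every panel, and H2-Aa there lies at 9068, 8518 and 8548 CPM against 441, 562 and 494 CPM in NK-like cells.

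Ciita, the transactivator, followed a different order of classes from H2-Aa, a gene it controls. Its level was 177, 193 and 222 CPM in type 2 and 191, 189 and 204 CPM in type 1 dendritic cell-like cells, and the 2 classes overlapped over the libraries. Macrophages held 72.3, 75.6 and 66.9 CPM, below both dendritic classes in each library, although their H2-Aa exceeded that of type 1 dendritic cell-like cells. The mature class held 20.3, 18.1 and 18.9 CPM, from 21, 29 and 16 counts, with an interval of 12.6 to 31.0 CPM at 4 months. Their Ciita was thus below that of monocyte-like cells, at 29.3, 30.2 and 37.9 CPM, while their H2-Aa was higher in each library. NK-like cells held 7.65, 7.996 and 8.04 CPM.

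Single cells showed the same order of Ciita from type 2 dendritic cell-like cells to macrophages and mature dendritic cell-like cells. When each cell was thinned to 3000 counts, Ciita was found in 37.4%, 44.6% and 47.9% of type 2 dendritic cell-like cells, and in 67.9%, 73.7% and 78.0% before thinning. For macrophages the thinned share was 18.6%, 20.0% and 18.9% and the unthinned share 39.6%, 44.7% and 39.7%. The mature class gave 6.62%, 5.33% and 5.88% after thinning, and NK-like cells 2.27%, 1.96% and 2.58%, the background of the method (before thinning, 12.5%, 12.4% and 10.8% of the mature and 5.83%, 6.71% and 5.98% of the NK-like cells). Of macrophages and the type 1, type 2 and mature dendritic cell-like cells, the mature ones thus carried the transactivator least often, nearest to the lymphocytes.

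The peptide exchange factor was also highest in type 2 dendritic cell-like cells among the named classes. H2-DMa, its alpha chain, stood at 939, 869 and 1008 CPM in type 2 dendritic cell-like cells, 683, 703 and 655 CPM in macrophages and 378, 380.3 and 405 CPM in monocyte-like cells. H2-DMb1, a beta chain of the factor, stood at 834, 825 and 698 CPM in macrophages and at 957, 855 and 807 CPM in type 2 dendritic cell-like cells, ranges that overlapped. Both were lower in mature dendritic cell-like cells, with H2-DMa at 159, 152 and 94.3 CPM and H2-DMb1 at 76.3, 84.9 and 63.6 CPM. At 20 months the H2-DMa of the mature class lay within the NK-like values of 91.6, 99.1 and 98.9 CPM.

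H2-DMb2, the alternative beta chain of the factor, was higher in type 1, type 2 and mature dendritic cell-like cells than in macrophages. Type 2 cells held 298, 355 and 456 CPM, mature cells 164, 149 and 46.0 CPM and type 1 cells 75.3, 105 and 81.6 CPM, while macrophages held 41.6, 42.1 and 37.1 CPM, which lay within the counting interval of mature cells at 20 months (32.7 to 62.8 CPM). The unnamed cluster with B-like and plasma-like markers was higher still, at 833, 501 and 544 CPM. In NK-like cells it was 8.71, 10.96 and 10.3 CPM. H2-Oa, which restrains the factor, had its highest values in the same places: 92.5, 123 and 155 CPM in type 2 dendritic cell-like cells and 102, 109.6 and 155 CPM in the unnamed cluster. Macrophages held 4.42, 5.87 and 6.56 CPM and monocyte-like cells 3.15, 3.32 and 3.34 CPM. Both were below the NK-like level of 6.85, 6.59 and 9.53 CPM, so no H2-Oa above background was detectable in them.

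Among genes of the same region outside the 9, H2-Ob, the partner of H2-Oa, had 67.6, 57.4 and 63.7 CPM in type 1 and 40.9, 47.4 and 64.7 CPM in type 2 dendritic cell-like cells. H2-Ob made up 58.5, 63.3 and 58.2% of the summed H2-Oa and H2-Ob counts in type 1 cells but 30.7, 27.8 and 29.4% in type 2 cells, so the balance of the 2 chains of H2-O differed between the dendritic classes in every library. H2-Eb2, a further class II beta chain gene, had 187, 157 and 132 CPM in mature against 7.50, 9.52 and 16.1 CPM in type 2 dendritic cell-like cells. The 407 mature cells held 558 of its 1214 counts. It was not limited to them, since the unnamed cluster with B-like and plasma-like markers held 49 in only 72 cells. H2-Ea, the I-E alpha chain, is annotated as a polymorphic pseudogene and had at most 3 counts in any class and library.

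Because gene lengths differ, the balance within a pair of genes was followed across classes as the share of 1 gene in the counts of both. The 2 beta chain genes of H2-DM gave the widest spread. H2-DMb2 made up 4.75, 4.85 and 5.05% of their summed counts in macrophages and 6.20, 7.08 and 5.45% in monocyte-like cells. In type 1 dendritic cell-like cells the share was 9.52, 14.4 and 10.8%, and in type 2 cells 23.7, 29.4 and 36.1%. Mature dendritic cell-like cells had 68.3, 63.7 and 41.9%, and the unnamed cluster with B-like and plasma-like markers 86.5, 83.3 and 72.1%. The share of H2-DMb2 was thus higher in type 2 and mature dendritic cell-like cells than in macrophages in each library, while the 2 dendritic classes were apart at 4 and 12 months and overlapped within counting error at 20 months. NK-like cells gave 14.0, 14.3 and 14.0%. Assigning each cell by its highest marker score, which made the mature class larger, lowered the shares to 36.8%, 37.6% and 24.8% in mature and 16.5%, 18.5% and 26.6% in type 2 cells, still above the macrophages.

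H2-DMb1 and H2-DMb2 are near copies, which bears on how far their counts can be told apart. Their coding sequences in GENCODE M21 have 786 bases each, of which 754 (95.9%) are identical. A stretch that holds 23 of the 32 differing bases lies within 1 exon, at coding bases 201 to 320, and is shown from GRCm38 with those bases in capitals (chr17:34155578-34155697 and chr17:34147796-34147915, plus strand).
H2-DMb1: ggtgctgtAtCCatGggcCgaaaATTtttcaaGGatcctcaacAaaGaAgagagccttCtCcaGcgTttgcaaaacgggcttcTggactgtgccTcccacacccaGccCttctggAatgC
H2-DMb2: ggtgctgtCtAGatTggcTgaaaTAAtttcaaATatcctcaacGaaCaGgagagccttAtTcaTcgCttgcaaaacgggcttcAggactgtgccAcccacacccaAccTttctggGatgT
Of all windows of 90 bases in the H2-DMb1 transcript, 15.9% occur unchanged in that of H2-DMb2. Near the 3′ end, where a 3′ method reads, 52 of 411 windows in the last 500 bases of H2-DMb1 are shared, and 0 of 411 in those of H2-DMb2. How reads that match both genes were counted is not given in the sources used here, so the levels and shares of this pair are uncertain to that extent.

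The balance of the 2 chains of I-A set mature dendritic cell-like cells apart. H2-Ab1 made up 50.03, 51.1 and 54.4% of the summed H2-Ab1 and H2-Aa counts in type 2 dendritic cell-like cells and 50.9, 50.1 and 52.4% in macrophages. In mature dendritic cell-like cells its share was 30.9, 35.0 and 34.8%, with an interval of 29.8% to 31.9% at 4 months, apart from the intervals of the other 12 classes in each library. Under the other clusterings and the assignment by marker score the mature share over all libraries lay between 33.6% and 41.9%. Cd74 against H2-Aa varied less, with Cd74 at 70.9, 71.1 and 72.3% of the pair in type 2 dendritic cell-like cells, 69.5, 70.0 and 71.6% in mature ones and 77.6, 77.4 and 78.8% in monocyte-like cells.

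Against the 4-month library, the balance of H2-Eb1 to H2-Aa counts was shifted in the 20-month library. These counts do not measure I-E pairs: H2-Ea, the I-E alpha chain, had 17 counts in all retained cells. H2-Eb1 made up 44.2, 45.1 and 49.9% of the summed H2-Eb1 and H2-Aa counts in macrophages, 45.4, 46.9 and 53.2% in type 2 and 45.7, 49.7 and 55.4% in type 1 dendritic cell-like cells. Its share at 20 months was the highest of the 3 libraries in 13 of 13 classes, and the intervals at 20 and 4 months were apart in 10 of them. The shift was not limited to antigen-presenting cells: NK-like cells, taken here as background, gave 47.4, 47.2 and 50.6%. H2-Ab1 against H2-Aa was likewise higher at 20 than at 4 months in 12 of 13 classes, plasmacytoid dendritic cell-like cells included (52.3, 47.6 and 53.5%), the exception being fibroblast-like cells. The 13 classes of a library share its preparation and are not 13 separate measurements.

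**Figure D2:**
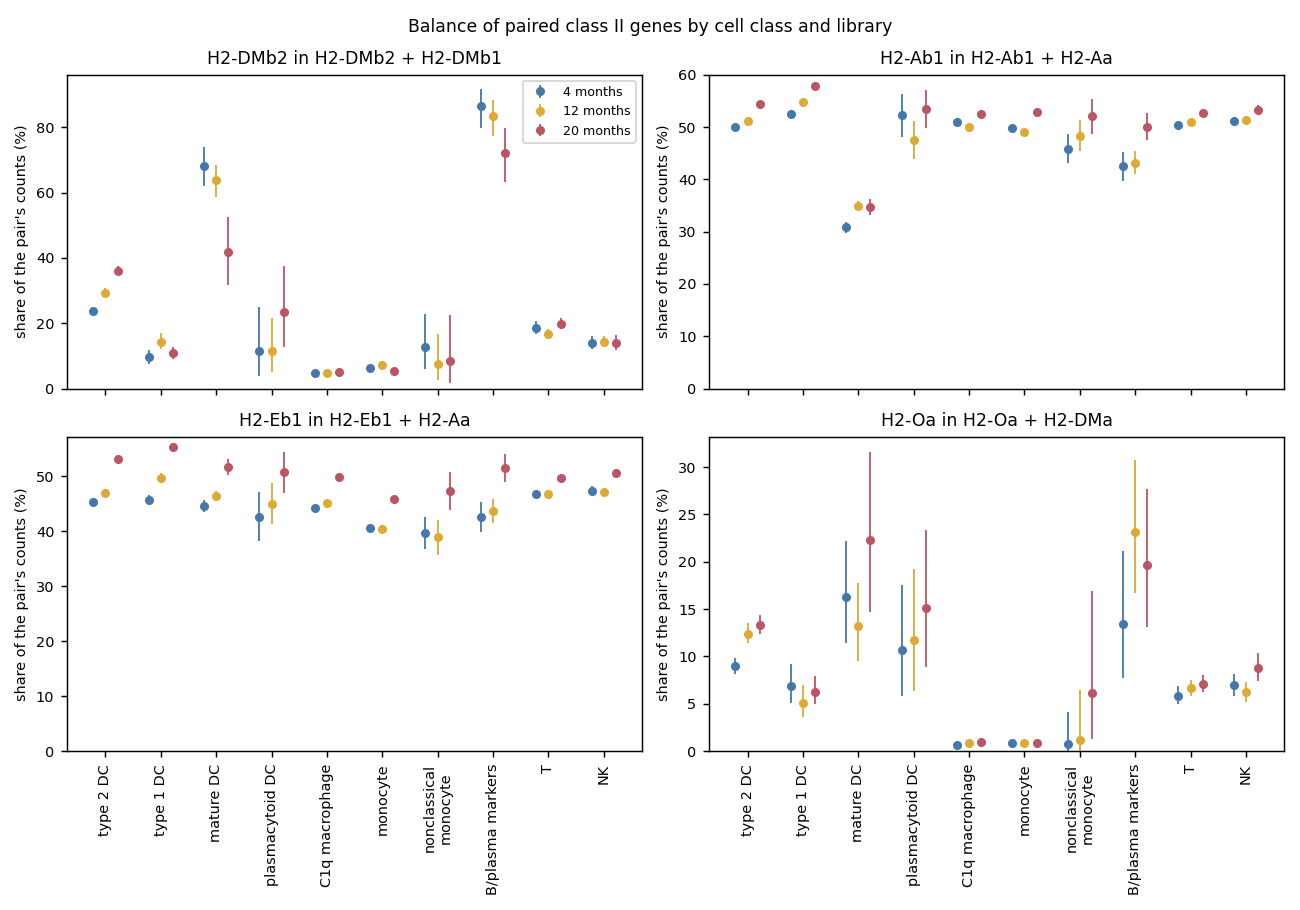
Share (%) of 1 gene in the summed counts of a pair, by cell class and library, with exact 95% intervals of counting error, for H2-DMb2 with H2-DMb1, H2-Ab1 with H2-Aa, H2-Eb1 with H2-Aa and H2-Oa with H2-DMa. In mature dendritic cell-like cells H2-DMb2 lies at 68.3, 63.7 and 41.9%, overlapping type 2 cells at 20 months, and H2-Ab1 at 30.9, 35.0 and 34.8%, below the other classes, and the 20-month points of H2-Eb1 lie above the others.

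H2-Oa against H2-DMa described how far the exchange factor is accompanied by its inhibitor. H2-Oa made up 8.97, 12.4 and 13.4% of the pair in type 2 dendritic cell-like cells, and the 4-month interval of 8.15% to 9.84% lay below the 20-month interval of 12.4% to 14.4%. In type 1 cells it was 6.93, 5.08 and 6.29%. Macrophages had 0.642, 0.828 and 0.992% and monocyte-like cells 0.828, 0.865 and 0.819%. NK-like cells, in which both genes are near background, gave 6.96, 6.23 and 8.79%, more than the macrophages and the type 1 cells in each library. Type 2 cells lay above the NK-like share in each library. These shares thus separate type 1 and type 2 cells from macrophages rather than show H2-Oa in the latter. The type 1 share lay below the NK-like share, which is not a floor for the level of H2-Oa. Type 1 cells held 149 H2-Oa counts in 333 cells, against 395 in 6374 NK-like cells.

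Promoter sequence was a feature that the choice of members did not use. Of the 9, 6 had a promoter window in the RefSeq table (GRCm38.p6, 250 bases before to 50 after each start), as did H2-Ob and H2-Eb2. Class II promoters are known for an X-Y arrangement, in which Ciita is recruited by factors on the X and Y boxes, so 70 bases are shown for 4 members with different class patterns. The capitals mark the Y box letters TGATTGG and the letters AAC that precede them.
H2-Aa: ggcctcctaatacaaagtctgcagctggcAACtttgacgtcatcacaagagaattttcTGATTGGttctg
H2-Eb1: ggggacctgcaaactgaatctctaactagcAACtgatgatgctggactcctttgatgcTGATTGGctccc
H2-DMb2: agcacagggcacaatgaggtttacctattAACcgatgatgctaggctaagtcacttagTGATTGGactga
H2-Oa: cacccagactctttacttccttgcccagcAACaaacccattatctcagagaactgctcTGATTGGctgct
They lie at chr17:34287862-34287931 (minus strand), chr17:34305748-34305817, chr17:34145099-34145168 and chr17:34092276-34092345 (plus strand). TGATTGG occurred on the gene's strand in 7 of 9 windows of the class II genes. In windows of all genes, searched on both strands, it occurred in 2568 of 32851 (7.82%). AAC starting 26 to 29 bases before it, a range chosen after these windows were seen, occurred in the same 7 of 9 and, on either strand, in 151 of all windows (0.460%). Both windows of H2-DMa lacked these letters on the gene's strand. The windows of H2-DMb2 and H2-Oa, which were lower in macrophages than in the type 1 and type 2 dendritic classes, thus hold the same arrangement as those of H2-Aa and H2-Eb1.

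Within a class, cells differed widely in class II. The summed counts of H2-Aa, H2-Ab1 and H2-Eb1 in cells thinned to 3000 counts had medians of 75, 76 and 89 in type 2 dendritic cell-like cells and 57, 67 and 58 in macrophages. The lowest 5% of macrophages lay at or below 4, 6 and 5 counts, within reach of the lymphocytes, and the highest 5% at or above 134, 134 and 126. NK-like cells had medians of 4, 5 and 4 and T-like cells 4, 5 and 5. Macrophages thus spanned from lymphocyte levels to above the median type 2 dendritic cell-like cell.

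Monocyte-like cells had medians of 5, 6 and 6 counts, close to the lymphocytes. Their 90th percentile was 18, 24 and 25 and their 95th 34, 40.3 and 45, so counts well above the lymphocyte level lay in a minority of cells, and this upper tail was lowest in the 4-month library. Cells of the mature class had medians of 17.5, 17 and 14.5 and 75th percentiles of 43, 39 and 27.8, with the lowest values at 20 months. Type 1 dendritic cell-like cells, at medians of 53.5, 57 and 56, showed no such spread between libraries.

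**Figure D3:**
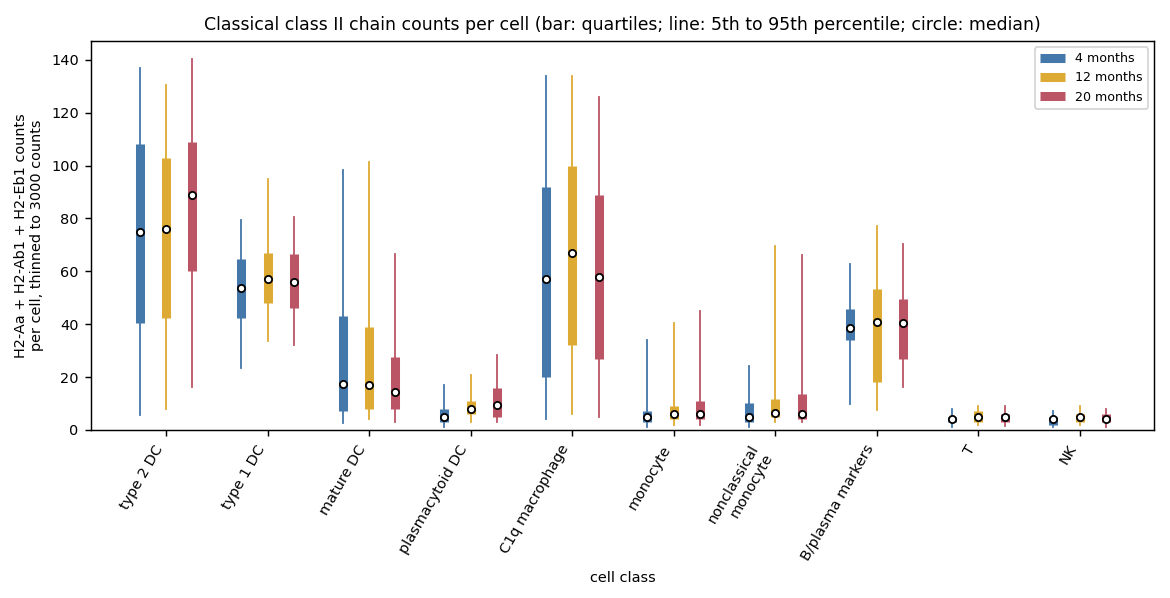
Counts of H2-Aa, H2-Ab1 and H2-Eb1 summed per cell after thinning each cell to 3000 counts, by class and library; circles are medians, thick bars quartiles and thin lines the 5th to 95th percentiles over cells. Type 2 dendritic cell-like cells have medians of 75, 76 and 89, macrophages 57, 67 and 58, and monocyte-like cells 5, 6 and 6, next to the lymphocytes.

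The macrophage class was made of clusters that differed in class II and in their share of each library. The cluster led by H2-Ab1 and H2-Eb1, although these genes took no part in the clustering, held 1032, 305 and 1297 cells and had H2-Aa at 8600.2, 9733 and 8179 CPM and Ciita at 97.0, 107 and 104 CPM. The cluster led by Il1b and Cxcl2 had H2-Aa at 8167, 8627 and 6970.3 CPM and Ciita at 75.9, 68.7 and 71.1 CPM. Cells led by Pf4 and Cd81, which scored highest for the C1q macrophage markers, were lower: H2-Aa stood at 5910.2, 5491 and 4684 CPM and Ciita at 31.6, 30.8 and 30.2 CPM. This cluster held 366 of 2866 macrophages at 4 months and 964 of 3609 at 20 months. Mmp12 Arg1 cells were lower still at 4 months, with H2-Aa at 4051, 7142 and 4752 CPM.

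The cluster led by Cxcl11 and Cxcl9, chemokine genes induced by interferon-gamma, had H2-Aa at 6909, 8065 and 6816 CPM and Ciita at 60.1, 65.0 and 61.3 CPM, below the Il1b Cxcl2 cluster in both genes. A small cluster of 61, 34 and 35 cells led by CT010467.1 and Camk1d had less H2-Aa, at 3302, 4164 and 5219 CPM, but Ciita at 129, 104 and 102 CPM, near the H2-Ab1 H2-Eb1 cluster. The macrophage-like cluster found almost only in the 12-month library held H2-Aa at 9109 CPM and Ciita at 98.4 CPM there. H2-Aa, H2-Ab1, Cd74 and H2-Eb1 were also among its leading genes, and it had 967 cells at 12 months. Different clusters were thus the largest in different libraries: the Il1b Cxcl2 cluster at 12 months with 997 cells, and the H2-Ab1 H2-Eb1 cluster at 4 and 20 months. The latter had 305 cells at 12 months, which leaves out the 967 cells of the other cluster with class II genes among its leading genes.

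Among monocyte-like cells, 2 clusters were led by Tgm2, and H2-Aa was 1819.9, 1593 and 1578 CPM in the one with Thbs1 and 1559.8, 1949.9 and 1636 CPM in that with AA467197. The cluster led by F13a1 and Fn1 had 626, 901 and 677 CPM. That led by Vcan and Thbs1 had 539.6, 732 and 615 CPM, near the lymphocyte background in each library. Ciita in the latter was 7.65, 17.1 and 15.01 CPM, against 7.65, 7.996 and 8.04 CPM in NK-like cells. H2-Aa was thus higher in both Tgm2 clusters than in the other 2, in each of the 3 libraries.

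**Figure D4:**
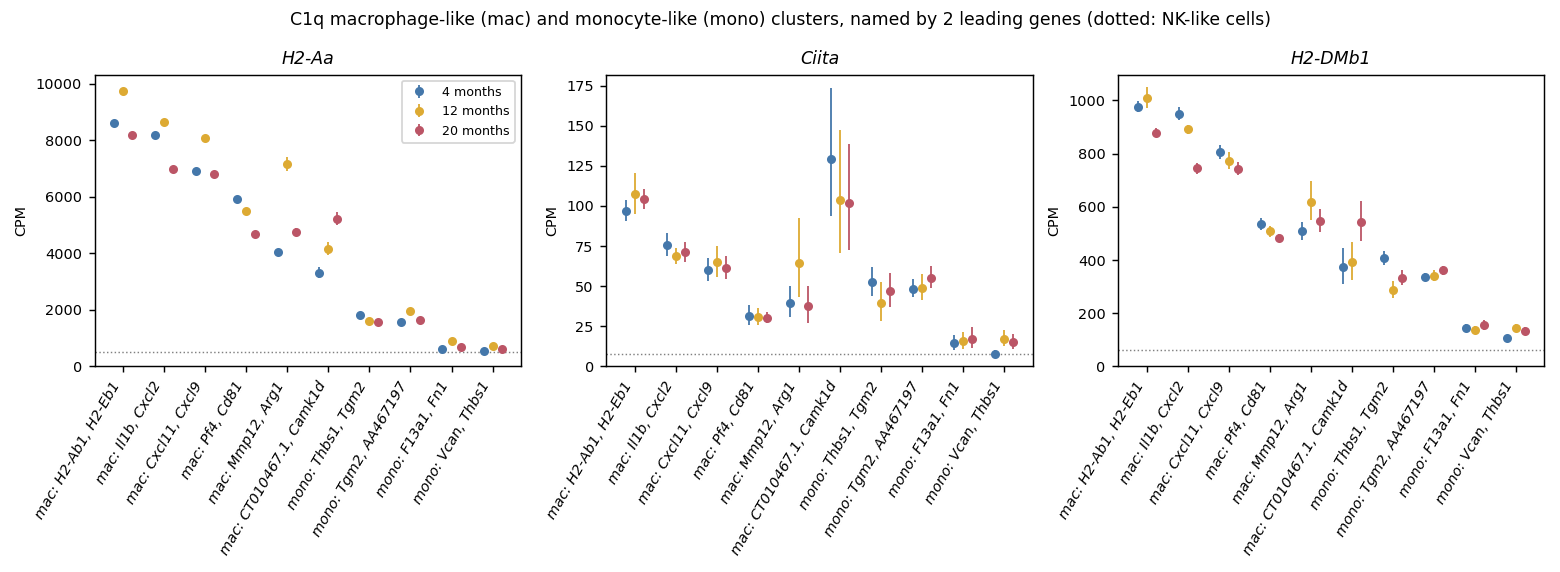
Levels of H2-Aa, Ciita and H2-DMb1 (CPM) in the 6 macrophage-like and 4 monocyte-like clusters with at least 20 cells in each library, named by 2 leading genes; points are libraries coloured by age, with exact 95% intervals of counting error, and the dotted line is the NK-like level. The H2-Ab1 H2-Eb1 cluster is highest in H2-Aa in each library, and the Pf4 Cd81 cluster lies below it in Ciita at 31.6, 30.8 and 30.2 CPM against 97.0, 107 and 104 CPM.

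The members differed little between libraries in macrophages. At 12 against 4 months the median log2 ratio of CPM over the 9 members was 0.12 (H2-Ab1, interval 0.11 to 0.13), and at 20 against 4 months -0.092 (interval -0.10 to -0.083). The same medians over all genes with at least 100 counts summed over both libraries were 0.0082 and 0.0016. Of these genes, 8.76% at 12 months and 8.13% at 20 months lay past 1.5-fold in either direction, and 0 of 9 members did at either age. The lowest member at 20 months was H2-DMb1, at -0.26 (-0.28 to -0.23), and the highest H2-Oa, at 0.57, which is at background in these cells. H2-Aa had a ratio of -0.18 and H2-Eb1 of 0.15.

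These macrophage values depend on which clusters are counted. Without the clusters of under 20 cells in a library, which removes the one found almost only in the 12-month library, the median at 12 months was 0.046. Over 13 alternatives it ran from 0.046 to 0.16 at 12 months and from -0.17 to -0.033 at 20 months, with the same sign throughout. The summed level of the C1q macrophage markers in the class was 9586, 10742 and 14257 CPM and that of the monocyte markers 9991, 8372 and 7072 CPM, the former higher and the latter lower in each older library. Their part in the member ratios was not tested.

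In monocyte-like cells most members were slightly higher in the older libraries. The median log2 ratio was 0.15 at 12 months (H2-DMb2, interval -0.15 to 0.44) and 0.18 at 20 months (H2-DMb1, interval 0.11 to 0.25), against 0.055 and 0.054 over all genes. The members' medians in the background classes were larger, at 0.33 and 0.25 in NK-like and 0.31 and 0.42 in T-like cells. The 0.42, that of H2-Aa, includes a T-like cluster of 167 cells carrying C1qa. Without that cluster H2-Aa of T-like cells was 465, 577 and 515 CPM in place of 466, 608 and 623, a smaller difference at 20 months. H2-Eb1 had 0.47 at 20 months (0.43 to 0.50), the highest of the 9, beside 0.35 for H2-Eb1 in NK-like cells. With 7.71% and 7.05% of genes past 1.5-fold at 12 and 20 months, 0 of the 8 members with at least 100 counts were past it. With finer clusters (resolution 2.0) the medians were 0.53 and 0.53, and with cells of at least 5000 counts the 12-month median was -0.0024, so its direction is not settled. C1q macrophage markers summed to 1434, 1704 and 2409 CPM in the monocyte-like cells. Their part in the ratios was not tested.

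Conventional dendritic cell-like cells (types 1 and 2 together) had medians of -0.021 and 0.10 at 12 and 20 months, with 0.019 and 0.026 over all genes. At the 2 ages 5.62% and 7.96% of genes, and 0 of 9 members, were past 1.5-fold. The direction at 12 months turned in 4 of 12 alternatives. Type 2 dendritic cell-like cells alone had medians of -0.029 and 0.17. In them 5.35% of genes at 12 months and 6.98% at 20 months were past 1.5-fold, and the members past it were 0 of 9 at 12 months and 2 of 9 at 20 months, H2-DMb2 and H2-Oa.

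Both members were higher in each older library in type 2 dendritic cell-like cells. H2-DMb2 was 298, 355 and 456 CPM, from 1310, 1342 and 1845 counts, and its log2 ratio at 20 against 4 months was 0.61 (0.51 to 0.72). H2-Oa was 92.5, 123 and 155 CPM, from 407, 466 and 629 counts, with a log2 ratio of 0.75 (0.57 to 0.93). The 20-month library was highest for both, whereas H2-DMb1 was lowest there, at -0.24 (-0.31 to -0.18). Over 11 alternatives the 20-month ratio stayed between 0.52 and 0.70 for H2-DMb2 and between 0.64 and 0.89 for H2-Oa. H2-Oa was also higher at 20 than at 4 months in the background classes. Its ratio was 0.48 in NK-like cells, and its level 5.28, 6.57 and 7.62 CPM in T-like cells. In macrophages, where H2-Oa is at background, the ratio was 0.57, while in mature dendritic cell-like cells it was below 0. In type 1 dendritic cell-like cells the 20-month library was not the highest of the 3, with H2-DMb2 at 75.3, 105 and 81.6 CPM and H2-Oa at 48.0, 33.3 and 45.8 CPM.

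More single cells of this class also carried these genes in the older libraries. H2-DMb2 was found in 42.1%, 44.1% and 54.8% of thinned type 2 dendritic cell-like cells (unthinned 61.3%, 65.0% and 74.1%), and in 3.10%, 3.82% and 2.99% of NK-like cells. H2-Oa was found in 18.5%, 22.9% and 32.1% (unthinned 38.3%, 44.6% and 56.2%), and in 2.15%, 1.73% and 2.81% of NK-like cells. In this class the type 2 dendritic cell markers summed to 728, 767 and 614 CPM, the monocyte markers to 7281, 6090.1 and 5349 CPM, the C1q markers to 739, 804 and 1173 CPM and the B-like markers to 28.6, 50.003 and 31.6 CPM. The monocyte markers were lower and the C1q markers higher at 20 than at 4 months, the B-like markers were highest at 12 months, and the part of these markers in the 2 ratios was not tested.

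Mature dendritic cell-like cells had lower members in the 20-month library. The median log2 ratio of the members was -0.11 at 12 months and -0.55 at 20 months (H2-Ab1, interval -0.65 to -0.45), where the median of all genes was -0.070 and all 9 members were below 0. At 12 months 5.06% of genes and 0 of 7 members with at least 100 counts were past 1.5-fold, and at 20 months 7.12% of genes and 4 of 7 members, all lower. H2-DMb2, at 164, 149 and 46.0 CPM from 170, 239 and 39 counts, had a log2 ratio of -1.84 (-2.38 to -1.33) at 20 months. The other 3 were H2-Aa at -0.80, H2-DMa at -0.76 and Cd74 at -0.66. H2-DMa of this class was at the NK-like level at 20 months, so its ratio is bounded by background. H2-DMb2 was thus lowest at 20 months in mature and highest at 20 months in type 2 dendritic cell-like cells, a difference between classes that was not tested.

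The mature class at 20 months rests on 102 cells, the fewest of the 3 libraries. Over 11 alternatives the 20-month median ran from -0.96 to -0.35, and the ratio of H2-DMb2 from -2.26 to -1.07. H2-DMb2 was found in 16.9%, 20.1% and 10.8% of thinned mature cells (unthinned 25%, 32.5% and 20.6%). Markers of mature dendritic cells summed to 8237, 7849 and 6896 CPM, C1q markers to 526, 727 and 1034 CPM and type 2 dendritic cell markers to 354, 368 and 285 CPM, and their part in the ratios was not tested. Fewer cells carrying H2-DMb2 and less of it per cell both enter the CPM of the class.

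Nonclassical monocyte-like cells, with 95, 40 and 35 cells, had medians of 0.72 at 12 months and 0.33 at 20 months (H2-DMb1, interval -0.33 to 0.96). There 7.1% and 10.5% of genes were past 1.5-fold, against 4 of 6 members at 12 months and 2 of 5 at 20 months, all higher. H2-Aa had log2 ratios of 0.72 (0.56 to 0.88) and 0.55 (0.38 to 0.73), but 3 of the 9 members were below 0 at 20 months. Counting intervals of this width, and so few cells, leave the size of the difference loosely fixed. In NK-like cells, taken as background, the members' medians were 0.33 and 0.25.

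**Figure D5:**
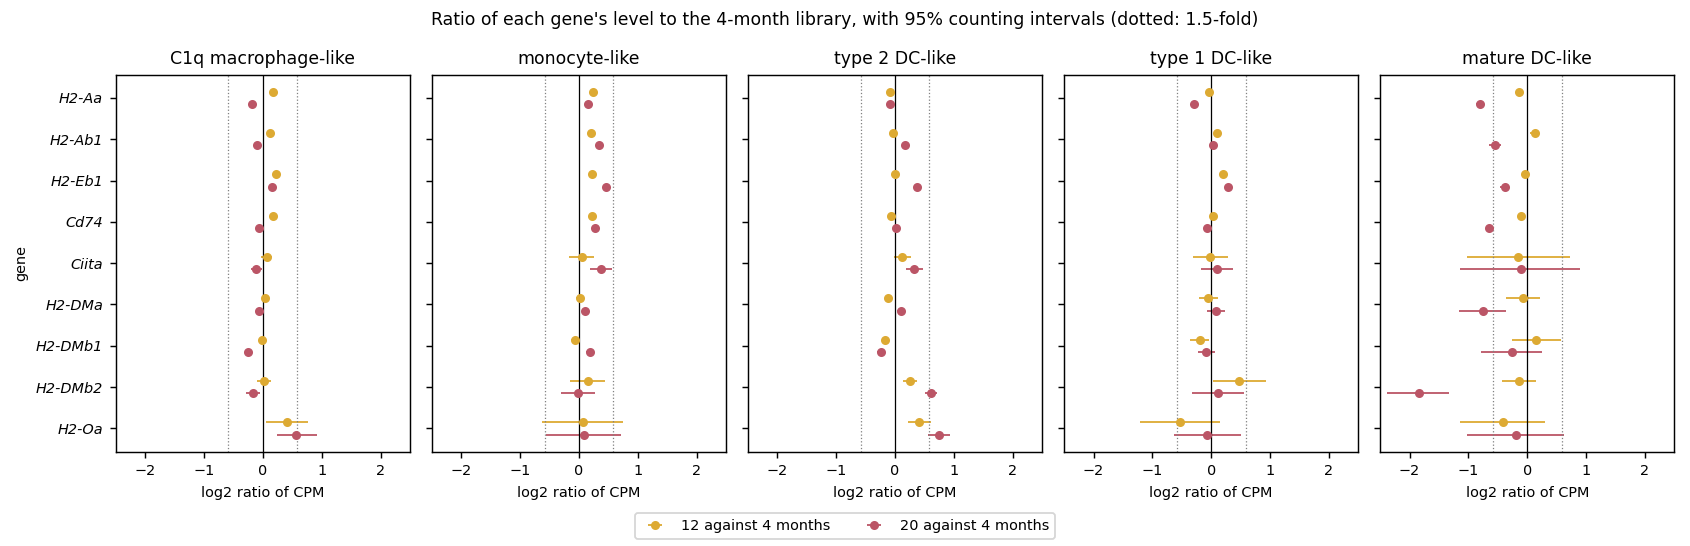
Log2 ratio of CPM at 12 and at 20 against 4 months for each of the 9 members in 5 classes, with exact 95% intervals of counting error; dotted lines mark 1.5-fold. In macrophages and monocyte-like cells all members lie within the dotted lines, while H2-DMb2 at 20 months lies at 0.61 in type 2 and -1.84 in mature dendritic cell-like cells.

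T-like and NK-like cells, taken as background, also differed between libraries. The members' median log2 ratio at 20 months was 0.42 in T-like and 0.25 in NK-like cells. C1q macrophage markers in NK-like cells summed to 470.4, 665 and 948 CPM, higher in each older library. A T-like cluster of 167 cells carried C1qa, and without it H2-Aa of T-like cells was 465, 577 and 515 CPM in place of 466, 608 and 623. The 0.42 is that of H2-Aa with this cluster included. H2-DMb1 of T-like cells was 47.6, 54.0 and 46.4 CPM without the cluster, in place of 47.7, 56.7 and 55.9. In the same T-like cells C1qa was 155, 191 and 266 CPM without the cluster. The order of the 3 libraries in H2-Aa of T-like cells thus changed with 167 cells, and 12 months was then the highest, as it was in NK-like cells.

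Other genes of the pathway were followed in 6 lists, in the same 3 main classes. Over all genes, 8.76% and 8.13% were past 1.5-fold at 12 and 20 months in macrophages, 7.71% and 7.05% in monocyte-like and 5.62% and 7.96% in conventional dendritic cell-like cells, so a count of 0 in a short list is near the background. None of 7 promoter-bound factors (Rfx5, Rfxap, Rfxank, the Nfy subunits and Creb1) was past 1.5-fold in macrophages or monocyte-like cells at either age, nor was any of the 6 with at least 100 counts in conventional dendritic cell-like cells. For inputs to and repressors of Ciita the counts were 0 of 11, 0 of 11 and 0 of 10 at both ages. Irf1, a factor induced by interferon-gamma that activates Ciita, had log2 ratios at 20 months of -0.41 in macrophages, -0.33 in monocyte-like and -0.57 in conventional dendritic cell-like cells. Socs1, which dampens that signal and is itself induced by it, had -0.30, -0.34 and -0.58. Both were lower at 20 than at 4 months in all 3 classes, within 1.5-fold, while Ciita was -0.11 in macrophages, 0.37 in monocyte-like and 0.28 in dendritic cell-like cells. The lower levels were not particular to these classes: in NK-like and T-like cells Irf1 had -0.24 and -0.30, and Socs1 -0.34 and -0.37.

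The proteases and the reductase that prepare antigen had 1 of 7 genes past 1.5-fold in macrophages and 1 of 7 in monocyte-like cells at 20 months, both higher, and none at 12 months. With so few genes, 1 call is near the background of 8.13% and 7.05% of all genes and is no result about the list. In macrophages it was Ctsl, cathepsin L, at 138, 142 and 217 CPM with a log2 ratio of 0.65. In monocyte-like cells it was Ifi30, the thiol reductase of endosomes, at 605, 696 and 947 CPM with a ratio of 0.65. Neither was particular to its class. In T-like and NK-like cells Ctsl had 0.69 and 0.51 at 20 months, and Ifi30 0.61 and 0.50. Conventional dendritic cell-like cells had 0 of 7 at both ages. For class II turnover (Marchf1, Marchf8 and Cd83) the counts were 0 of 3, 0 of 3 and 0 of 2 at both ages.

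Costimulatory genes, which act beside class II at the surface, had medians of -0.27, -0.31 and -0.29 log2 at 20 months in the 3 classes, all below the medians of all genes. Past 1.5-fold was 1 of 4, in conventional dendritic cell-like cells, where 7.96% of all genes were: Cd40, the receptor through which T cells activate them, at 156, 124 and 103 CPM with a ratio of -0.60. Taken apart, type 2 cells had Cd40 at 173, 144 and 115 CPM, with a ratio of -0.59 (-0.76 to -0.43). Type 1 cells had 73.1, 55.5 and 71.6 CPM, with a ratio of -0.030 (-0.48 to 0.43). In mature dendritic cell-like cells at 20 months the costimulatory gene past 1.5-fold was Icosl, at -0.84. Of the other class II region genes, H2-Ob was 0.66 in type 2 dendritic cell-like cells at 20 months, past 1.5-fold like its partner H2-Oa and 6.98% of all genes. H2-Eb2 was past it in macrophages at 20 months, at 0.60, from 41, 75 and 85 counts, where 8.13% of all genes were. Its macrophage level over all libraries was 2.24 CPM against 1.18 CPM in NK-like cells, so this ratio is near the floor. In conventional dendritic cell-like cells H2-Eb2 was also past it, at 0.98. Over all libraries it had 13 counts in type 1 and 134 in type 2 cells.

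The genes whose levels ran most like the 3 chains were ranked by Pearson correlation, over 39 sums of 13 classes in 3 libraries, with the mean log2(CPM + 10) of H2-Aa, H2-Ab1 and H2-Eb1, among 7644 genes. The points share libraries and depth, so the coefficients are descriptions. Outside the members the highest were Cbr3 (0.930), Snx8 (0.851), Ifi30 (0.851), Acox3 (0.829), Gdi2 (0.827), Fgd2 (0.817), Erp29 (0.816), Shtn1 (0.815), Gm6377 (0.814) and Htr7 (0.788). Cbr3 encodes a carbonyl reductase, and Ifi30 is the reductase of the pathway list. Among members, Cd74 ranked 4, Ciita 6 (0.872), H2-DMa 7, H2-DMb1 8, H2-DMb2 18 (0.785) and H2-Oa 127 (0.637). H2-DMb2 and H2-Oa, which are low in macrophages, were thus the members least like the chains.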

How the data were processed

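The authors deposited raw counts, whole numbers per gene and cell, for each of the 3 libraries (110371225, 127850782 and 119873564 in all). Per the submitters' processing notes, STAR 2.7.10a and GRCm38 were used. Whether molecules or reads were counted, and how cells were called, is not given in the sources used here.

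Members and gene lists were chosen with earlier results of these data known. Cells under 500 counts or over 15% mitochondrial counts (2 cells for the latter) were dropped, and the 6% of each library with the highest Scrublet doublet scores were removed (863, 879 and 881). Scanpy 1.11.5 was run on 2000 variable genes, 30 components, 15 neighbours and Leiden resolution 1 with seed 0, first on all cells and then on myeloid cells. Clusters were named by a marker score of at least 0.4 with at least 3 markers in 10% of cells. Counts were summed per class and library. All members, up to 4 pathway genes per list with the largest 20-month ratio and the 10 genes most like the chains are named. Genes named for a comparison at 12 months or outside the 3 main classes were chosen after their values were seen. Alternatives changed the filters, clustering and scaling. The scripts were tested on simulated data.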

Additional observations from a re-analysis of the deposited data

How the results depend on the processing

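In the 3 main classes no median passed 1.5-fold under any alternative, but small medians moved by more than their counting interval. In macrophages the median log2 ratio of the members at 12 and 20 months was 0.12 and -0.092. It was 0.048 and -0.16 with cells of at least 5000 counts, 0.14 and -0.11 with members and pathway genes in the clustering, 0.098 and -0.13 at resolution 2, 0.16 and -0.10 clustered without library-specific genes, 0.14 and -0.13 by highest marker score, 0.13 and -0.063 without mitochondrial and ribosomal protein genes, 0.13 and -0.033 as a mean of per-cell levels, 0.086 and -0.16 less the T-like level, and 0.090 and -0.041 with clusters weighted alike. At 12 months it was 0.096 with at most 10% mitochondrial counts and 0.046 without clusters of under 20 cells in a library, an alternative chosen after seeing the data; at 20 months it was -0.17 with no doublets removed. In monocyte-like cells (0.15 and 0.18) resolution 2 gave 0.53 and 0.53, marker scores 0.48 at 12 months and no doublet removal 0.25 at 20 months. In conventional dendritic cell-like cells (-0.021 and 0.10) the values were -0.064 and 0.070 with at most 10% mitochondrial counts, 0.017 and 0.14 at resolution 2, 0.070 and 0.025 by marker score, -0.040 and 0.076 scaled by the median ratio, 0.0074 and 0.15 as a mean per cell, and -0.051 and 0.072 less the T-like level. At 12 months no doublet removal gave -0.044 and clustering without library-specific genes 0.0041; at 20 months leaving out mitochondrial and ribosomal protein genes gave 0.13 and weighting clusters alike 0.14. The cause of these moves was not tested. Without a minimum count the share of genes past 1.5-fold was 43.9% and 40.3% in macrophages, 49.3% and 48.8% in monocyte-like and 47.1% and 48.1% in conventional dendritic cell-like cells, since genes of few counts then enter. No paired analysis was possible because each age has 1 library. Depth limits the members of few counts: in mature dendritic cell-like cells Ciita had 21, 29 and 16 counts and H2-Oa 32, 37 and 23.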

Other observations

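In lymphocytes, Cd74 and H2-Aa did not keep 1 ratio in every cluster. The T-like cluster led by Tnfrsf4 and carrying Foxp3, Ikzf2 and Icos, genes known from regulatory T cells, held 690, 561 and 429 cells, with Cd74 at 1941, 2391 and 2169 CPM and H2-Aa at 473, 609.7 and 545 CPM. Its ratio of Cd74 to H2-Aa was 4.10, 3.92 and 3.98, with an interval of 3.89 to 4.32 at 4 months. The largest T-like cluster, led by Cd8b1, had a ratio of 2.64, 2.66 and 2.86, and the largest NK-like cluster 2.698, 2.75 and 2.98. In the 3 libraries the Foxp3 cluster thus had more Cd74 per H2-Aa than these lymphocytes, from H2-Aa levels close to theirs. The clusters were formed without either gene, and the pattern was noticed in the data and has no test.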
